A study of Mus musculus with 8 samples.

Results

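Lpl, the lipase that frees fatty acids from circulating triglyceride, and 9 genes whose products bring Lpl to the capillary wall, restrain it, or carry its fatty acids into cells were followed in mouse epididymal fat, a visceral depot of white adipose tissue. The members were chosen by name, with earlier results of these data known. All 10 of them had at least 1 array row annotated with the member's symbol alone, out of 19310 genes measured in this way. Fabp5 had 2 rows and every other member 1, and no row with several symbols named a member. The brighter Fabp5 row, by its mean over all arrays, was used and the other served as a check.

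The study compared 4 samples labelled WT with 4 labelled Rev-erb alpha KO, all from male C57BL/6 mice 12 to 15 weeks old. Rev-erb alpha, encoded by Nr1d1, belongs to the nuclear receptors, acts as a transcriptional repressor and is part of the circadian clock. All mice received a standard diet under 12 h of light and 12 h of dark, and tissue was taken at Zeitgeber time 10, in hours after lights on, per the labels' protocols. The knockout allele, the cells it affects and whether each sample came from 1 mouse are not given in the sources used here, so the p-values reflect only how far these samples spread, which may be technical.

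Lpl is made by adipocytes, matures in the endoplasmic reticulum with the help of Lmf1, and is carried across capillary endothelium by Gpihbp1. There it hydrolyses the triglyceride of chylomicrons and very low density lipoproteins, unless Angptl4 inactivates it, while Vldlr on the cell surface binds the same particles. The released fatty acids enter adipocytes with the help of Cd36 and the transport protein encoded by Slc27a1, and Fabp4 and Fabp5 bind them in the cytosol. Mfge8 is a secreted protein that bridges αv integrins to lipid surfaces and has been linked to fatty acid uptake through these receptors.

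The deposited values are log2 expression values from a whole-transcript array. Array medians lay between 5.90 and 5.95. On the leading principal component (43.2% of the variance) wild type spanned -15.0 to -12.2 and the knockout-labelled group 9.34 to 19.0. On the next (14.7%) knockout-labelled arrays 1 and 2 lay at -12.8 and -10.7 and arrays 3 and 4 at 11.4 and 5.91. Wild-type array 1 lay at 9.93 there and the other wild-type arrays at -2.42 to 0.428. Results that rest on either knockout-labelled pair are given with and without it. The Nr1d1 row read 9.11 to 9.83 log2 in wild type and 8.80 to 9.56 across knockout-labelled arrays (log2 difference -0.26, SE 0.19, limma adjusted p = 0.479). Where on the transcript that row lies is not given in the sources used here, so it checks nothing about the genotype, and arrays are named by their labels. The clock gene Arntl was 3.61-fold higher across knockout-labelled arrays (log2 difference 1.85, SE 0.098, limma adjusted p = 3.20e-05).

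Of the 10 genes, Mfge8 and Vldlr were higher and Slc27a1 was lower in the knockout-labelled tissue, at an adjusted p under 0.05 in a limma fit over all rows. Among the brightest rows of all genes, 7.50% passed in either direction, 3.89% higher and 3.61% lower. The other 7 members did not pass. In those same 3 genes the groups of arrays did not overlap, which was the case for 15.5% of all genes. The median log2 difference of the members was 0.02, against -0.006 over all genes, and 5 members lay above 0 and 5 below. The median size of the difference regardless of sign was 0.22 log2 among the members and 0.08 over all genes. Every member was bright, at or above the 84.7th percentile of rows by mean level, while the values over all genes include dim rows. Without the dimmest 33.3% of rows, 1879 of 13832 rows passed, against 1536 of 20748 in the full fit. No share among genes of a like level was computed. The 5 members Lpl, Gpihbp1, Lmf1, Cd36 and Fabp4 differed by less than 0.1 log2.

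**Figure D1:**
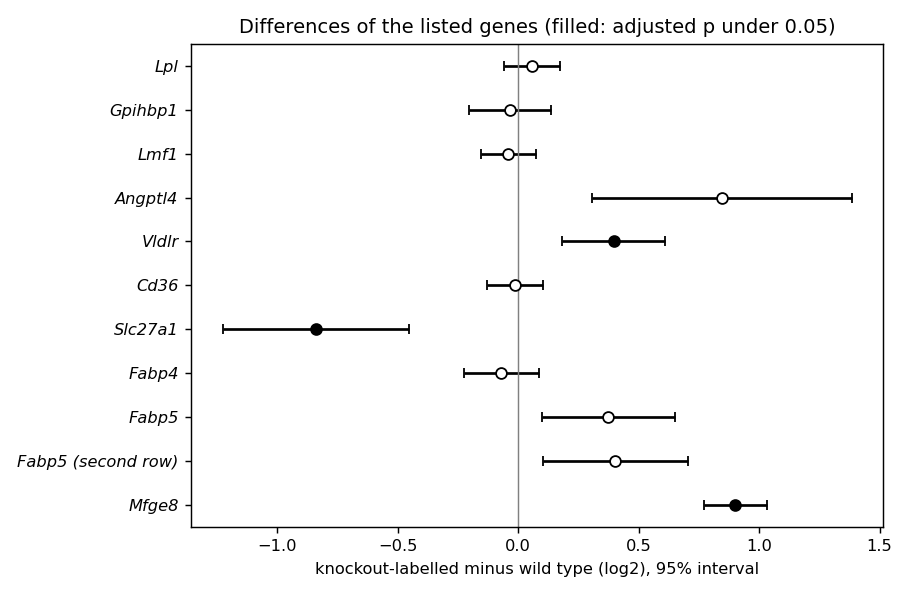
Difference between knockout-labelled and wild-type arrays (log2, horizontal axis) for each row of the 10 genes, with 95% intervals from the moderated fit (4 arrays per group, intervals not adjusted for the number of rows) and filled points for adjusted p under 0.05. Mfge8 at 0.90 and Vldlr at 0.40 lie to the right of 0 and Slc27a1 at -0.84 to the left, and the open points of Angptl4 and Fabp5 lie to the right with wider intervals.

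The sequences before the transcription starts of the 3 genes that passed are shown with that of Cd36, which did not pass, because they were searched for letters that clock and lipid regulators are known to bind. RefSeq promoter entries (GRCm38.p6) matched 5 of the 10 genes, Cd36, Mfge8, Slc27a1, Lmf1 and Vldlr, with 8 starts. Each line gives the 250 bases before the start farthest upstream, and capitals mark every match on either strand to a set of motifs. AGGTCA is the half-site that Rev-erb alpha and other nuclear receptors bind. The RORE is a like half-site preceded by bases rich in adenine and thymine, so that some of its matches overlap the half-site. AGGTCANAGGTCA is the repeat bound by PPAR receptors and contains the half-site. CACGTG is known as the E-box and TTATGTAA as a D-box. GGGCGG, known as a GC box, and CCAAT are general promoter elements.
Mfge8, chr7:79149061-79149310, minus strand: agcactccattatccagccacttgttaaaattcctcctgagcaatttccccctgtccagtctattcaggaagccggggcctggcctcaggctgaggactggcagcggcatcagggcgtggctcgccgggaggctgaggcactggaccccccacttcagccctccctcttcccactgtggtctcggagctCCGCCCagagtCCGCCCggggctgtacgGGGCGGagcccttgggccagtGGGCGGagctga
Slc27a1, chr8:71568621-71568870, plus strand: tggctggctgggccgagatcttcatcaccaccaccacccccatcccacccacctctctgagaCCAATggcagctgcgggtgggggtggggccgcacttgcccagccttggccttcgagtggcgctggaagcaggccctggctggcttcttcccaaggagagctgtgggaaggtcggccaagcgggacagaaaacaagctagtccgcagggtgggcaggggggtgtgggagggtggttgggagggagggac
Vldlr, chr19:27216234-27216483, plus strand: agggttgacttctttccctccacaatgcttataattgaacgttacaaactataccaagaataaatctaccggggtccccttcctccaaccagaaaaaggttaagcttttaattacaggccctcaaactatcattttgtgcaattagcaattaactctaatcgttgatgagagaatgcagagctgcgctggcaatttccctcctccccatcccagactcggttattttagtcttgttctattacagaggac
Cd36, chr5:17835897-17836146, minus strand: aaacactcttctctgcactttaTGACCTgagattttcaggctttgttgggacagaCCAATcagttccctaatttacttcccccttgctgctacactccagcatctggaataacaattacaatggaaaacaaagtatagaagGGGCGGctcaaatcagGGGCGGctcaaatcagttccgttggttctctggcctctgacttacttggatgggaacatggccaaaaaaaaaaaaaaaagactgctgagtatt

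Among these 8 windows, the Cd36 window was the only one with AGGTCA, read there as TGACCT on the printed strand, 228 to 223 bases before the start. That half-site occurs in 14.0% of the 32851 windows of all genes. CACGTG stood in a single window, that of another Slc27a1 start (chr8:71570344-71570593), and occurs in 6.02% of all windows. No window of the 5 genes held the RORE (0.332% of all windows), AGGTCANAGGTCA (0.0335%) or TTATGTAA (0.819%). GGGCGG was in 6 of the 8 windows (32.7% of all windows) and 4 times in that of Mfge8, and CCAAT was in 4 (33.8%). The matches are letters only, and a window without one says nothing about binding elsewhere.

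Lpl itself hardly differed between the groups. Its row (10572130) read 12.68, 12.70, 12.74 and 12.74 log2 in wild-type arrays 1 to 4 and 12.77, 12.73, 12.87 and 12.71 in knockout-labelled arrays 1 to 4. The groups overlapped, knockout-labelled array 3 was the highest of the 8, and the spread within each group was under 0.1 log2 (SD 0.026 and 0.069, n = 4 each). The log2 difference was 0.06 (SE 0.053, limma adjusted p = 0.586), with a 95% interval of -0.06 to 0.17, and it was -0.01 after quantile normalization. The mean level of the Lpl row stood at the 99.96th percentile of rows, that of Cd36 at the 99.92nd and that of Fabp4 at the 99.92nd. Signals close to the upper end of a scanner's range can be compressed, and whether that holds for these rows was not tested, as no scanner intensities were used.

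The 2 genes that bring Lpl to its place of work were also close between groups. Gpihbp1 (row 10424695), the endothelial carrier, read 8.53, 8.46, 8.67 and 8.73 log2 in wild type and 8.66, 8.64, 8.43 and 8.54 in the knockout-labelled arrays. The groups overlapped, with wild-type arrays 3 and 4 above every knockout-labelled array and knockout-labelled array 3 below every wild-type one, and the log2 difference was -0.03 (SE 0.077, limma adjusted p = 0.849, 95% interval -0.20 to 0.13). Its sign changed with single arrays left out (-0.08 to 0.01). Lmf1 (row 10442816), the chaperone of the endoplasmic reticulum, read 7.98, 8.06, 8.07 and 8.04 in wild type and 8.07, 8.02, 7.94 and 7.98 across knockout-labelled arrays (log2 difference -0.04, SE 0.051, limma adjusted p = 0.718, 95% interval -0.15 to 0.07). Wild-type and knockout-labelled values of Lmf1 were interleaved.

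Angptl4 (row 10450038), which encodes the secreted inhibitor of Lpl and is a known target of PPAR receptors, varied most among the 10 genes in wild type. It read 8.80, 9.15, 9.01 and 9.76 log2 in wild-type arrays 1 to 4 (9.18 ± 0.41, SD, n = 4) and 10.23, 10.60, 9.54 and 9.75 in knockout-labelled arrays 1 to 4 (10.03 ± 0.48, n = 4). Knockout-labelled arrays 1 and 2 lay above every wild-type array, while arrays 3 and 4 lay below wild-type array 4 and above the other wild-type arrays. The difference of 0.85 log2 (SE 0.24, 1.80-fold, 95% interval 0.31 to 1.38) did not pass after adjustment (limma adjusted p = 0.0635). It passed in 2 of the 8 fits that leave out 1 array, without wild-type array 4 (1.04, limma adjusted p = 0.0301) and without knockout-labelled array 3 (1.01, 0.0411). In the others it did not pass (0.66 to 0.94 log2, 0.0874 to 0.148). The same difference passed when the dimmest 33.3% of rows were left out (0.0469), and did not under another variance model (0.128). With knockout-labelled arrays 1 and 2 as the only ones of their group it was 1.23 (0.0312), and with arrays 3 and 4 as the only ones 0.46 (0.268).

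**Figure D2:**
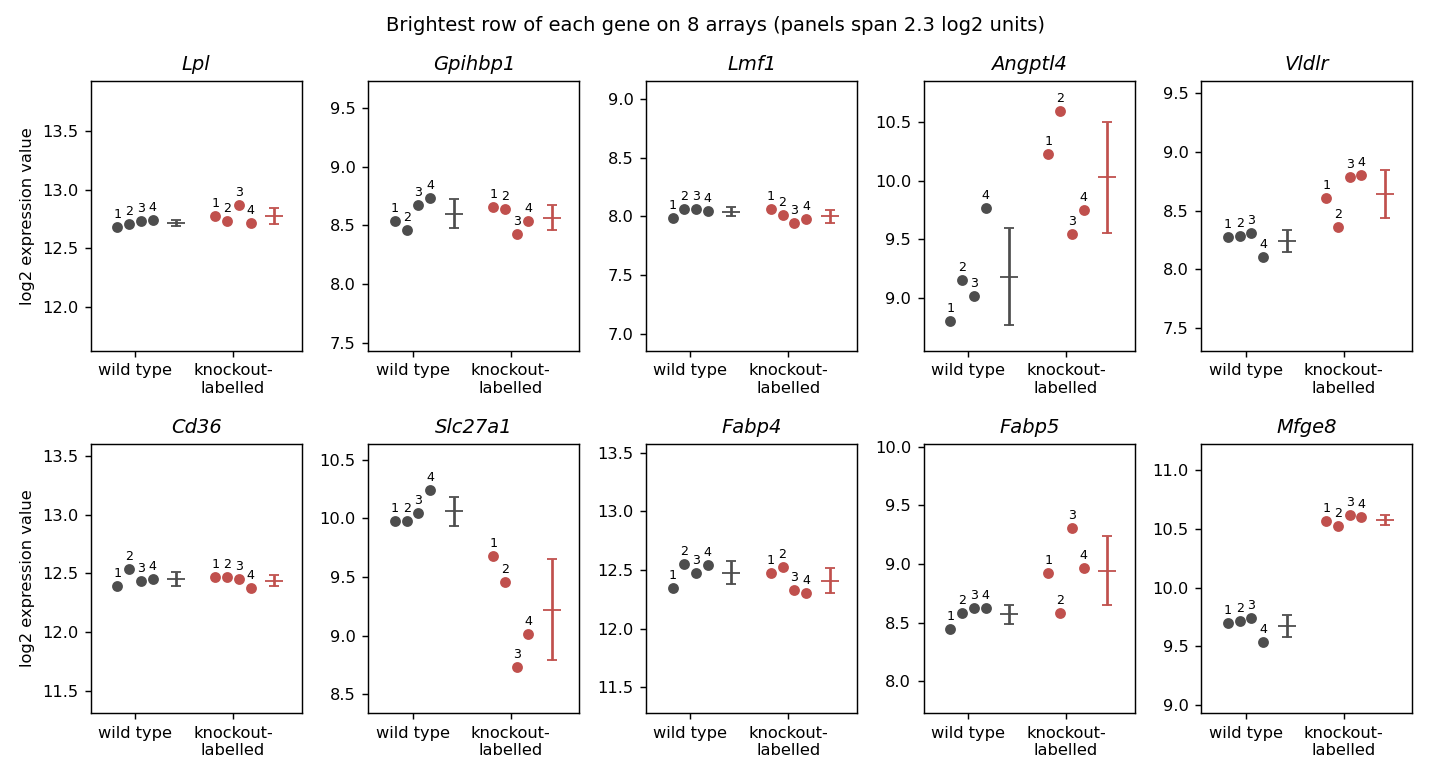
Log2 expression values (vertical axes, each spanning the same number of log2 units) of the brightest row of each of the 10 genes in 4 wild-type (grey) and 4 knockout-labelled (red) arrays, with replicate numbers at the points and the mean ± SD beside them. The Mfge8 groups are 0.90 log2 apart with little spread, the Slc27a1 and Angptl4 values of the knockout-labelled arrays are spread over about 1 log2, and the Lpl, Gpihbp1, Lmf1, Cd36 and Fabp4 groups overlap.

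Vldlr (row 10462281), the receptor for triglyceride-rich lipoproteins, was moderately higher in the knockout-labelled tissue. It read 8.27, 8.28, 8.31 and 8.10 log2 in wild type (8.24 ± 0.094, n = 4) and 8.61, 8.36, 8.78 and 8.81 across knockout-labelled arrays (8.64 ± 0.21, n = 4). The groups did not overlap, but knockout-labelled array 2 lay only just above wild-type array 3. The difference was 0.40 log2 (SE 0.097, 1.32-fold, limma adjusted p = 0.0336). The call was lost without any one of wild-type arrays 1 to 4 or knockout-labelled arrays 1, 3 and 4 (0.34 to 0.42 log2, limma adjusted p 0.0587 to 0.0955) and kept without knockout-labelled array 2 (0.49, 0.00615). Without knockout-labelled arrays 1 and 2 the difference was 0.55 (0.00387), and without arrays 3 and 4 it was 0.24 (0.222).

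Cd36 (row 10528207), the fatty acid translocase of the plasma membrane, read 12.39, 12.54, 12.43 and 12.45 log2 in wild type and 12.46, 12.47, 12.45 and 12.37 in the knockout-labelled arrays. Every knockout-labelled value but that of array 4 fell inside the wild-type range, and the log2 difference was -0.01 (SE 0.053, limma adjusted p = 0.920, 95% interval -0.13 to 0.10). Its sign was not stable across the alternatives (-0.04 to 0.02).

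Slc27a1 (row 10572647), which encodes the fatty acid transport protein FATP1, fell in the knockout-labelled tissue. It read 9.98, 9.98, 10.04 and 10.24 log2 in wild type (10.06 ± 0.12, n = 4) and 9.68, 9.46, 8.73 and 9.02 across knockout-labelled arrays (9.22 ± 0.43, n = 4). All knockout-labelled arrays lay below all wild-type arrays, arrays 3 and 4 farthest. The difference was -0.84 log2 (SE 0.17, 1.79-fold lower, limma adjusted p = 0.0167). It was -0.49 (limma adjusted p = 0.0368) without knockout-labelled arrays 3 and 4 and -1.19 (0.000647) without arrays 1 and 2. Leaving out wild-type array 4 (-0.78, 0.0522) or knockout-labelled array 4 (-0.77, 0.0566) ended the call. In a whole-tissue sample, fewer cells of a type and less RNA per cell cannot be told apart, for this gene as for the others.

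The cytosolic carriers were Fabp4, the abundant form of adipocytes, and Fabp5, which adipocytes, macrophages and endothelial cells also express. Fabp4 (row 10497265) read 12.35, 12.55, 12.48 and 12.55 log2 in wild type and 12.47, 12.53, 12.33 and 12.31 in the knockout-labelled arrays, with overlapping groups (log2 difference -0.07, SE 0.070, limma adjusted p = 0.632, 95% interval -0.22 to 0.09). Fabp5 (row 10585699) read 8.45, 8.58, 8.63 and 8.62 in wild type (8.57 ± 0.084, n = 4) and 8.93, 8.58, 9.30 and 8.96 across knockout-labelled arrays (8.94 ± 0.29, n = 4). Knockout-labelled arrays 1, 3 and 4 lay above all wild-type arrays and array 2 among them. The Fabp5 difference of 0.37 log2 (SE 0.12, 95% interval 0.10 to 0.65) did not pass (limma adjusted p = 0.101), and it passed without knockout-labelled array 2 (0.49, 0.0167) or without arrays 1 and 2 (0.56, 0.0130).

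The second Fabp5 row (10490838) gave a like picture, 7.89, 7.997, 7.73 and 8.07 log2 in wild type and 8.35, 7.99, 8.72 and 8.23 across knockout-labelled arrays (log2 difference 0.40, SE 0.14, limma adjusted p = 0.106). The platform annotation lists the same transcripts for both rows, so they may read overlapping sequence and are not independent measurements.

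Mfge8 (row 10564713) showed the clearest separation of the 10 genes. It read 9.70, 9.71, 9.74 and 9.54 log2 in wild type (9.67 ± 0.091, n = 4) and 10.56, 10.52, 10.62 and 10.60 across knockout-labelled arrays (10.58 ± 0.041, n = 4). The lowest knockout-labelled array was 10.52 and the highest wild-type array 9.74. The difference was 0.90 log2 (SE 0.058, 1.87-fold, 95% interval 0.77 to 1.03, limma adjusted p = 4.84e-05). It lay between 0.86 and 0.92 with single arrays left out, and at 0.87 and 0.93 with knockout-labelled arrays 1 and 2 or 3 and 4 as the only ones of their group, passing each time.

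**Figure D3:**
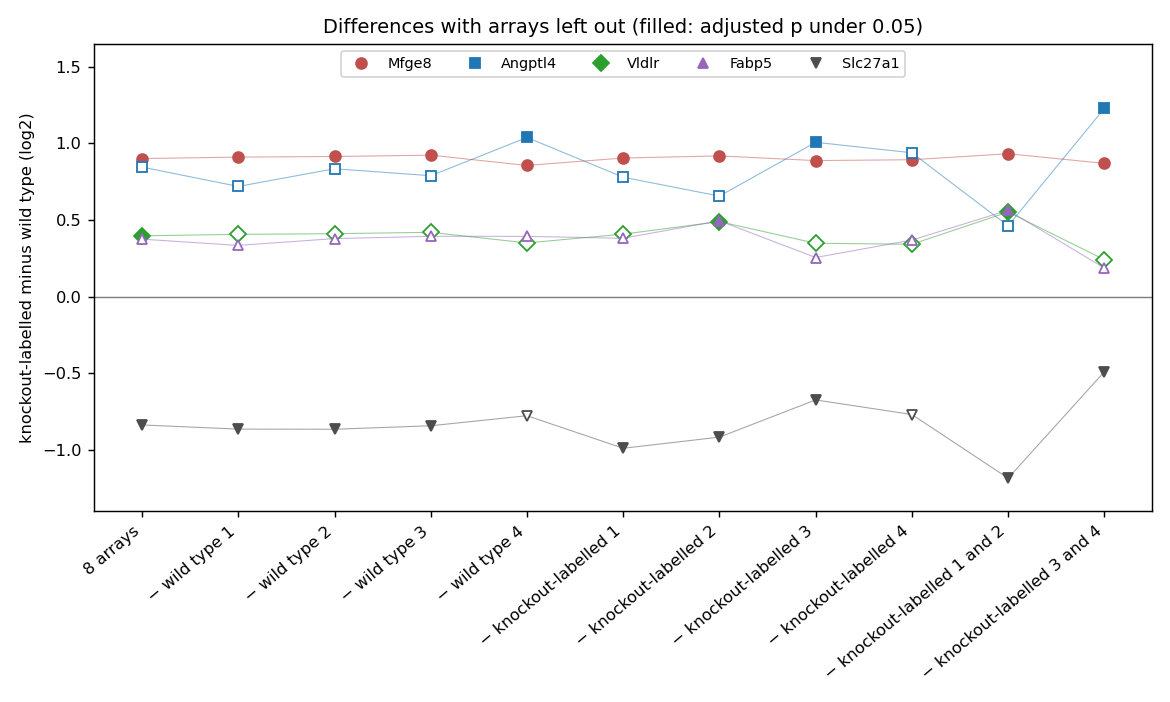
Difference between knockout-labelled and wild-type arrays (log2, vertical axis) for 5 of the genes in the fit of 8 arrays and in fits that leave out the arrays named on the horizontal axis, with filled points for adjusted p under 0.05. Mfge8 stays near 0.9 and filled, Slc27a1 moves between -0.49 and -1.19, and Vldlr, Angptl4 and Fabp5 are filled in some fits and open in others.

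The arrays with the largest differences were not the same for each gene. In Slc27a1, Vldlr and Fabp5 the differences were larger in knockout-labelled arrays 3 and 4 together than in arrays 1 and 2 together, and in Angptl4 they were larger in arrays 1 and 2. Mfge8 differed by a like amount in both pairs. The difference between the pairs was not tested.

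The genes whose values over the 8 arrays ran closest to each gene that passed were found by the root mean square difference between row-centred log2 values. For Mfge8 these were Tspan17 (0.057 log2), Tstd3 (0.068) and Dennd4a (0.086), with differences between the groups of 0.85, 0.93 and 0.91 log2. For Slc27a1 they were the sulfotransferase gene Chst1 (0.092), the medium-chain acyl-CoA synthetase gene Acsm5 (0.12) and the sialyltransferase gene St3gal4 (0.13), with differences of -0.72, -0.93 and -0.82 log2. In fits that leave out 1 array Chst1 passed in 5 of 8 (adjusted p up to 0.0683) and St3gal4 in 7 of 8 (0.0580 without knockout-labelled array 4). For Vldlr they were the lysosomal phospholipase gene Pla2g15 (0.042), Stard6 (0.058) and Cmip (0.061), with differences of 0.43, 0.33 and 0.39 log2, of which that of Stard6 did not pass (SE 0.11, limma adjusted p = 0.109). Pla2g15 passed in 2 of the 8 fits that leave out 1 array, those without knockout-labelled array 1 or 2 (adjusted p 0.0534 to 0.0759 in the other 6). The likeness is a description of these 8 arrays, and genes were chosen by it.

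Other genes of lipoprotein and fatty acid handling were read from 9 lists, also chosen with earlier results of these data known. They held 77 genes, of which 69 were measured. Of those, 6 were higher, 7 lower and 56 did not pass (18.8% called, against 7.50% of all genes), and their median log2 difference was 0.01. Among lipoprotein apolipoproteins, Apoc1, an inhibitor of lipoprotein clearance, was lower (-0.77, SE 0.13, limma adjusted p = 0.00570) and the other 4 of 5 did not pass. Apoc1 read 9.30, 9.92, 9.68 and 9.85 log2 in wild type and 9.002, 8.76, 9.08 and 8.84 in the knockout-labelled arrays, with no overlap.

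Genes for the inhibition, maturation and trafficking of Lpl had 2 higher and none lower of 10 measured, with a median of 0.14. Hspg2, the heparan sulfate proteoglycan perlecan, was 1.54-fold higher (log2 difference 0.62, SE 0.071, limma adjusted p = 0.000709). Its wild-type values were 9.26, 9.18, 9.32 and 9.38 log2 and its knockout-labelled values 9.85, 9.79, 10.06 and 9.92. Pcsk6, a proprotein convertase, was higher by 0.35 (SE 0.092, limma adjusted p = 0.0432), a call kept without wild-type array 1 or 4 and lost without each of the other 6 (0.29 to 0.38 log2, 0.0614 to 0.110).

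Of 5 related lipases, the monoacylglycerol lipase gene Mgll was higher (0.27, SE 0.054, limma adjusted p = 0.0128) and the others did not pass. Of 10 lipoprotein receptors, Lrp5, a Wnt co-receptor of the low density lipoprotein receptor family, was higher (0.34, SE 0.064, 0.0105) and Scarb1, the receptor for high density lipoprotein, lower (-0.41, SE 0.098, 0.0312). The Scarb1 call was kept only without wild-type array 1 and lost without any of the other 7 arrays (-0.43 to -0.32 log2, limma adjusted p 0.0507 to 0.0875).

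None of the 5 other Slc27a genes passed, with Slc27a5 at 0.11 (SE 0.051, limma adjusted p = 0.242) and Slc27a2 at -0.39 (SE 0.26, 0.427). Slc27a2 read 5.66 log2 in wild-type array 1, against 4.17 to 4.87 in the other wild-type arrays. Of these 5 genes, 2 lay below 0 and 3 above. Of 8 other fatty acid binding protein genes, Fabp7, the form of brain and glia, was higher (0.62, SE 0.11, limma adjusted p = 0.00707), from 5.26 ± 0.14 to 5.88 ± 0.21 log2 (n = 4 each), and 7 did not pass. Among 7 acyl-CoA synthetases, Acsm5 was lower (-0.93, SE 0.21, 0.0235), a call that ended on leaving out wild-type arrays 3 or 4 singly, or array 4 of the knockout-labelled group, (-0.97 to -0.82 log2, 0.0534 to 0.0697), and the median was -0.19.

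Of 11 genes for Cd36 partners, caveolar proteins and the integrins of Mfge8, Itgb5, an integrin subunit that binds Mfge8, was higher (0.25, SE 0.063, limma adjusted p = 0.0371). That call was kept without wild-type array 3 and lost without any of the other 7 arrays (0.22 to 0.27 log2, 0.0516 to 0.105). The αv subunit gene Itgav lay below 0 (-0.14, SE 0.077, limma adjusted p = 0.332) and Itgb3 above (0.14, SE 0.064, 0.243), and neither passed. The transcriptional regulators had 4 of 8 lower and none higher, with a median of -0.33. Srebf1, which drives lipogenic genes, fell by 0.67 log2 (SE 0.11, limma adjusted p = 0.00524), the coactivator gene Ppargc1a by 0.56 (SE 0.10, 0.00891), the receptor gene Ppara by 0.39 (SE 0.064, 0.00563) and the adipogenic factor gene Cebpa by 0.37 (SE 0.058, 0.00454). The calls of Ppara and Ppargc1a were lost without knockout-labelled arrays 3 and 4 (-0.32 and -0.52, limma adjusted p = 0.0503 and 0.0564).

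**Figure D4:**
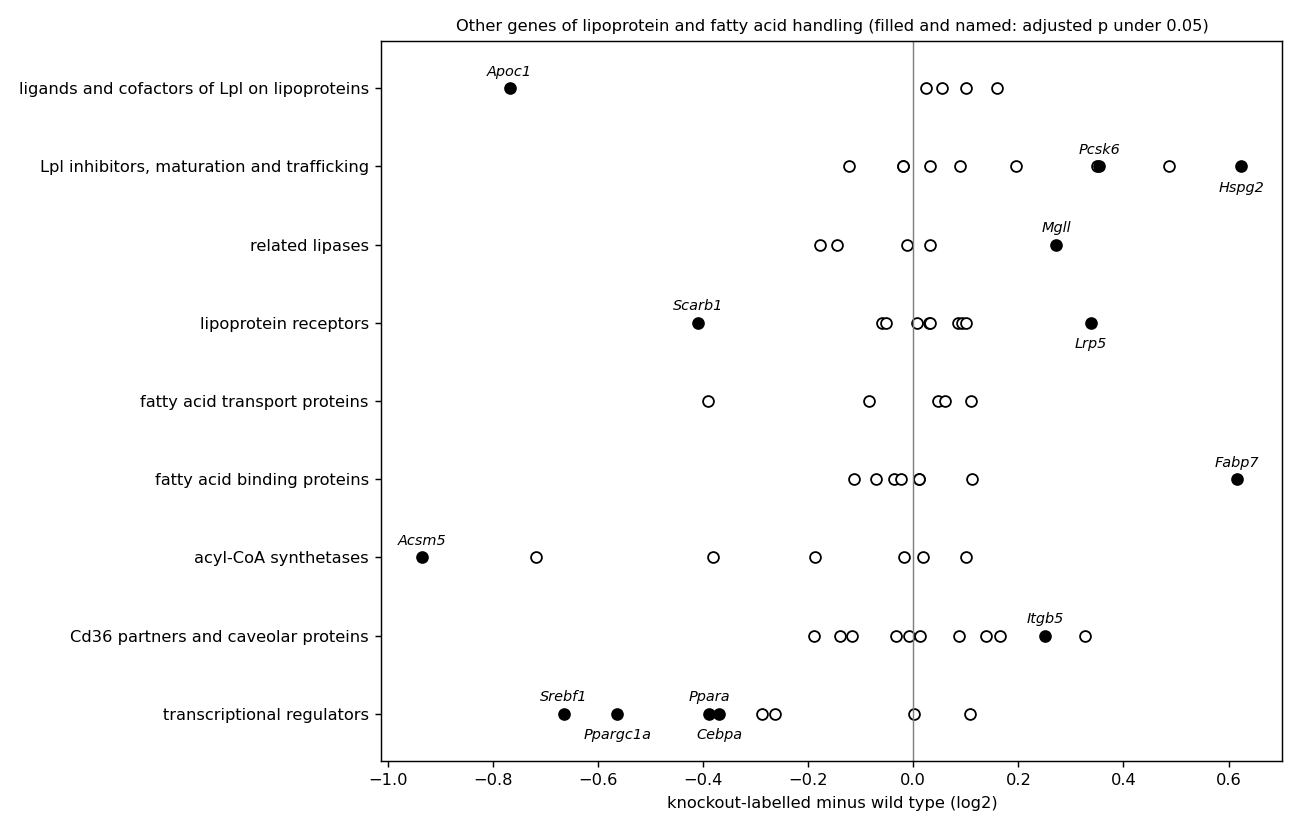
Difference between knockout-labelled and wild-type arrays (log2, horizontal axis) for the 69 measured genes of 9 lists of lipoprotein and fatty acid handling, with 1 point per gene (4 arrays per group, brightest row) and names beside filled points, which had an adjusted p under 0.05. Filled points lie on both sides of 0, and those of the transcriptional regulators all lie to the left.

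Markers of the cell types that fat tissue can hold are given beside these results, because Gpihbp1 is endothelial and Mfge8, Fabp5 and Lpl are made by more than 1 cell type. Of all genes, 7.50% passed. The share was 22.2% of adipocyte, 20.0% of endothelial, 33.3% of progenitor and fibroblast, 10.0% of macrophage, 14.3% of mesothelial and 12.5% of muscle markers. The lists are short, so each share rests on few genes, and it was not tested against that of all genes. Of 9 adipocyte markers, Lep (0.75, SE 0.13) and Aqp7 (0.39, SE 0.067) were higher, while 5 of the list lay below 0. Among those were Plin1 (-0.20, limma adjusted p = 0.0529) and Lipe (-0.15, 0.141), which did not pass. In these 4 named genes the groups did not overlap, which was the case for 15.5% of all genes. The list's median difference was -0.04 log2, opposite in sign to that of its mean, which lay between 10.98 and 11.06 log2 in wild-type arrays and 11.09 and 11.13 in knockout-labelled ones. Of 10 endothelial markers, Cldn5 (0.99, SE 0.12) and Pecam1 (0.20, SE 0.052) were higher, while 3 lay below 0 without passing, Egfl7 the farthest (-0.09). The endothelial median was 0.14, with list means of 8.24 to 8.45 and 8.47 to 8.59. Of 9 progenitor and fibroblast markers, Col1a1 (0.71, SE 0.086), Mfap5 (0.84, SE 0.12) and Pi16 (0.40, SE 0.099) were higher. In that list 2 lay below 0 without passing, Dcn the farthest (-0.14), and the median was 0.14, with list means of 8.43 to 8.78 and 8.86 to 9.02. For these 3 list means no knockout-labelled array lay inside the wild-type range. Over the members that did not pass the arrays overlapped in each list (adipocyte 10.99 to 11.04 and 10.90 to 11.02, endothelial 8.31 to 8.51 and 8.41 to 8.59, progenitor and fibroblast 8.88 to 9.24 and 9.14 to 9.26). Those members were picked by the same comparison of these arrays, which favours overlap, so nothing about the whole lists is read from it.

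Of 10 macrophage markers, Cd14 (-0.38, SE 0.073) was lower, while 8 lay above 0 without passing, Itgam the farthest (0.28), and the median was 0.10. The list means of 7.36 to 7.78 and 7.61 to 7.87 overlapped. Of 7 mesothelial markers, Msln (0.60, SE 0.069) was higher, while the other 6 lay below 0 without passing, from -0.31 for Krt8 to -0.09 for Upk3b, and the median was -0.20, with list means of 8.16 to 8.46 and 8.08 to 8.25. Over the 6 that did not pass the means were 8.25 to 8.59 in wild type and 8.07 to 8.26 in the knockout-labelled arrays. Krt8 read 8.04 log2 in wild-type array 1, against 6.99 to 7.09 in the other wild-type arrays and 6.78 to 7.25 in the knockout-labelled ones. Of 8 muscle markers, Actn3 (-0.43, SE 0.10) was lower, while 4 lay above 0 without passing. The farthest of these was Acta1 (0.77, SE 0.25, limma adjusted p = 0.0971). The median of the muscle list was -0.01, with list means of 4.99 to 5.18 and 5.09 to 5.21. None of 4 epididymal epithelial markers passed, the smallest p being that of Adam7 (-0.22, SE 0.12, limma adjusted p = 0.341), with list means of 3.80 to 3.92 and 3.76 to 3.80. No row reads 0 on this scale, whose lowest value was 2.09. The part of these cell types in the differences of the 10 genes was not tested. Among the markers that passed, limma adjusted p ran from 0.000791 for Msln to 0.0439 for Pecam1. In fits that leave out 1 array, Pecam1 passed only without knockout-labelled array 2 (adjusted p 0.0724 to 0.112 in the other 7). Pi16 passed without array 1 of either group or knockout-labelled array 2 (0.0510 to 0.0997 in the other 5), and Actn3 without array 1 of wild type or array 2 of the knockout-labelled group (0.0740 to 0.0970 in the other 6).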

How the data were processed

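RNA of 8 adipose samples, 4 per group, was measured on a whole-transcript Affymetrix array after TRIzol extraction and biotin labelling, per the labels' protocols. The authors deposited log2 values, 1 per row and array. That they are log2 was read from their range, 2.09 to 13.4. Of tools, affy is named in the submitters' processing notes; the background correction, normalization and filters are not given in the sources used here. Values made comparable between arrays hide shifts shared by most genes. No scanner signals were used, so dim rows have no background bound. Precision was limited by the number of arrays and by the spread within the groups, which differed between rows.

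Of 23346 rows, 20748 had 1 gene symbol and were tested, 1183 had several and 1415 none. The contrast was a group-only linear model (lmFit, eBayes, no filter) in limma 3.58.1 under R 4.3.3, checked on simulated data. P-values are two-sided and adjusted by Benjamini-Hochberg over all 20748 rows, with calls at an adjusted p under 0.05. SE and the 95% intervals come from the moderated fit.

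The members, gene lists and tests were chosen with earlier results of these data known. Named were all members, the list genes that passed or else those with the smallest p (2 per pathway list, 1 per marker list), Nr1d1, Arntl, and for each member that passed the 3 genes most like it, where predicted genes and olfactory and vomeronasal receptors were not eligible. Alternatives were other scalings, a filter on dim rows, all rows, other variance models, array weights, the mean of a gene's rows, the replicate number as a block, arrays left out, an adjusted p under 0.10 and a 1.5-fold minimum. Same-numbered arrays were checked for shared deviations and were not treated as pairs.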

Additional observations from a re-analysis of the deposited data

Results flagged for a closer look

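The groups of 4 arrays were checked for the rows of the listed genes and of the genes named by the fixed rule, 94 groups in all. A sample stood far from the other 3 in 3 groups, where chance alone gives about 1 in 20. Acsm5 read 7.46 log2 in wild-type array 4, against 7.01 to 7.03 in the others. Actn3 read 6.08 in knockout-labelled array 2, against 5.70 to 5.74. Arntl read 6.65 in knockout-labelled array 2, against 6.94 to 6.95. No value of the 10 listed genes stood apart in this way. Markers mentioned outside that rule were not in this check. Of those, Krt8 read 8.04 in wild-type array 1, against 6.99 to 7.09 in the others. Plin1 read 11.75 in wild-type array 2, against 11.82 to 11.83. Lipe read 11.83 in knockout-labelled array 1, against 11.91 to 11.92.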

How the results depend on the processing

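The number of changed rows, 1536 in the fit as reported, ranged from 913 to 1418 with single arrays left out, and was 701 without knockout-labelled arrays 3 and 4, 1822 without arrays 1 and 2, 2552 at an adjusted p under 0.10 and 326 with a 1.5-fold minimum. Of the 10 listed genes 3 passed, and 1 to 4 with single arrays left out. The fewest remained without knockout-labelled array 4, when Mfge8 alone passed. Mfge8 passed in all 17 alternatives, Slc27a1 in 15 and Vldlr in 8. Of those that did not pass in the fit as reported, Angptl4 passed in 4 of 17 and Fabp5 in 2 of 18. Small differences that had not passed changed sign, and passed in neither direction. These were Lpl with quantile normalization (-0.0109), Cd36 with median centring (0.00528), and, without knockout-labelled arrays 3 and 4, Gpihbp1 (0.0493), Lmf1 (0.000741), Cd36 (0.0148), Fabp4 (0.0209) and Nr1d1 (0.0265). With single arrays left out Gpihbp1 ranged from -0.0810 to 0.0114 and Cd36 from -0.0339 to 0.0156. The cause of these shifts was not tested. Of the genes named, Vldlr, Lep, Pecam1, Cd14, Pi16, Actn3, Pcsk6, Mgll, Scarb1, Fabp7, Acsm5, Itgb5, Ppara, Ppargc1a, Pla2g15, Cmip, Chst1 and St3gal4 were not called without knockout-labelled arrays 3 and 4 (limma adjusted p 0.0503 to 0.250), nor Pcsk6, Lrp5, Scarb1 and Itgb5 without arrays 1 and 2 (0.0599 to 0.135). With quantile normalization Pecam1 (0.0712), Pcsk6 (0.0593), Itgb5 (0.0532) and Actn3 (0.0502) were not called, nor was Pcsk6 with all rows tested (0.0502). Fits without a pair of arrays were chosen after the arrays were seen to part. With the replicate number as a block 1105 rows and 2 listed genes passed, and Vldlr did not (0.40 log2, limma adjusted p = 0.0624), nor did Pecam1, Pi16, Scarb1 and Itgb5 (0.0521 to 0.0972). Same-numbered arrays deviated together with correlations of -0.067 to 0.134 over rows. The arrays numbered 2 matched best with each other (0.134), and no other array matched best with its own number. These correlations cannot show whether same-numbered samples share more than a number.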
